A study of Rattus norvegicus with 4 samples.

Results

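The insulin-like growth factor (IGF) axis was followed across 4 groups of rat soleus muscle. The soleus is a slow postural muscle of the hindlimb. The 10 genes were the ligands Igf1 and Igf2, the receptors Igf1r and Igf2r, and the binding proteins Igfbp2, Igfbp3, Igfbp4, Igfbp5, Igfbp6 and Igfbp7. They were chosen by gene symbol. Every probe set annotated to exactly 1 of these symbols was taken, which gave 23 probe sets for 10 of the 14217 genes on the array. A probe set is a group of short probes that together report 1 transcript.

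All groups were male Wistar rats, 10 weeks old at the start and listed as 14 weeks old in the sample labels, fed their diet for 24 days. The control diet was a modified AIN-93G diet with corn oil in place of soybean oil. The genistein diet was AIN-93G with 0.05% genistein (0.5 g per kg), a soy isoflavone that binds oestrogen receptors. The labels state the oil change for the control diet only. On day 14 the sciatic nerve of the left leg was cut out, and the right leg of the same rat had a sham operation. Muscle was taken 10 days later. RNA of 8 rats was pooled for each of the 4 groups (control sham, control denervated, genistein sham, genistein denervated), and each pool was hybridised to 1 array. No value below therefore has a replicate, an error between animals or a test. Within a diet, the sham and the denervated pool are opposite legs of the same rats, so a sham leg is not the muscle of an animal with intact nerves.

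Igf1 and Igf2 are secreted growth factors that act through Igf1r, a receptor tyrosine kinase which signals to PI3K and Akt and promotes protein synthesis in muscle. Igf2r binds Igf2 and carries it to the lysosome for breakdown. The binding proteins hold the ligands outside the cell, and can lengthen their life, keep them from the receptor or deliver them to it. Igfbp7 binds IGF weakly and is also known as a matrix protein of vessels. Muscle fibres make Igf1 themselves, and macrophages and fibroblasts in muscle make it too.

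The signals are linear intensities in the authors' scaling, whose mean after trimming 2% of probe sets at each end was 500.2 units on every array. Signals below the 40th percentile of all probe sets (78.9 units) were set to that floor, and 58.5% to 60.8% of probe sets lay above it on each array. The 8 slow fibre markers were above the floor on all 4 arrays. All 8 nerve loss markers were at least 2-fold higher in denervated muscle on both diets. That goes with the sample titles, which set the groups, and against the treatment field of 2 of the 4 samples. The diet of an array rests on its label alone. Signals of different probe sets depend on their probes, so no gene's level is set against another's. Agreement between probe sets of 1 gene gives a yardstick for the scatter of probe sets on the same arrays. Over 2310 genes, their log2 denervation ratios had an SD about the gene's mean of 0.35 (control diet) and 0.36 (genistein), and their diet ratios one of 0.26 (sham) and 0.25 (denervated). This SD leaves out errors shared by a whole array, such as those of labelling or scaling. It may also hold real differences between the transcripts that probe sets report. It says nothing of how pools of other rats would vary.

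Of the 23 probe sets, 16 were above the floor on all 4 arrays, 3 on some of them and 4 on none. Each gene is given by the brightest of its probe sets (mean log2 signal over the arrays), and its other probe sets are given beside it. On that basis 9 of 10 genes were above the floor on all arrays. The exception was Igfbp2, which was below it in genistein sham muscle.

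**Figure D1:**
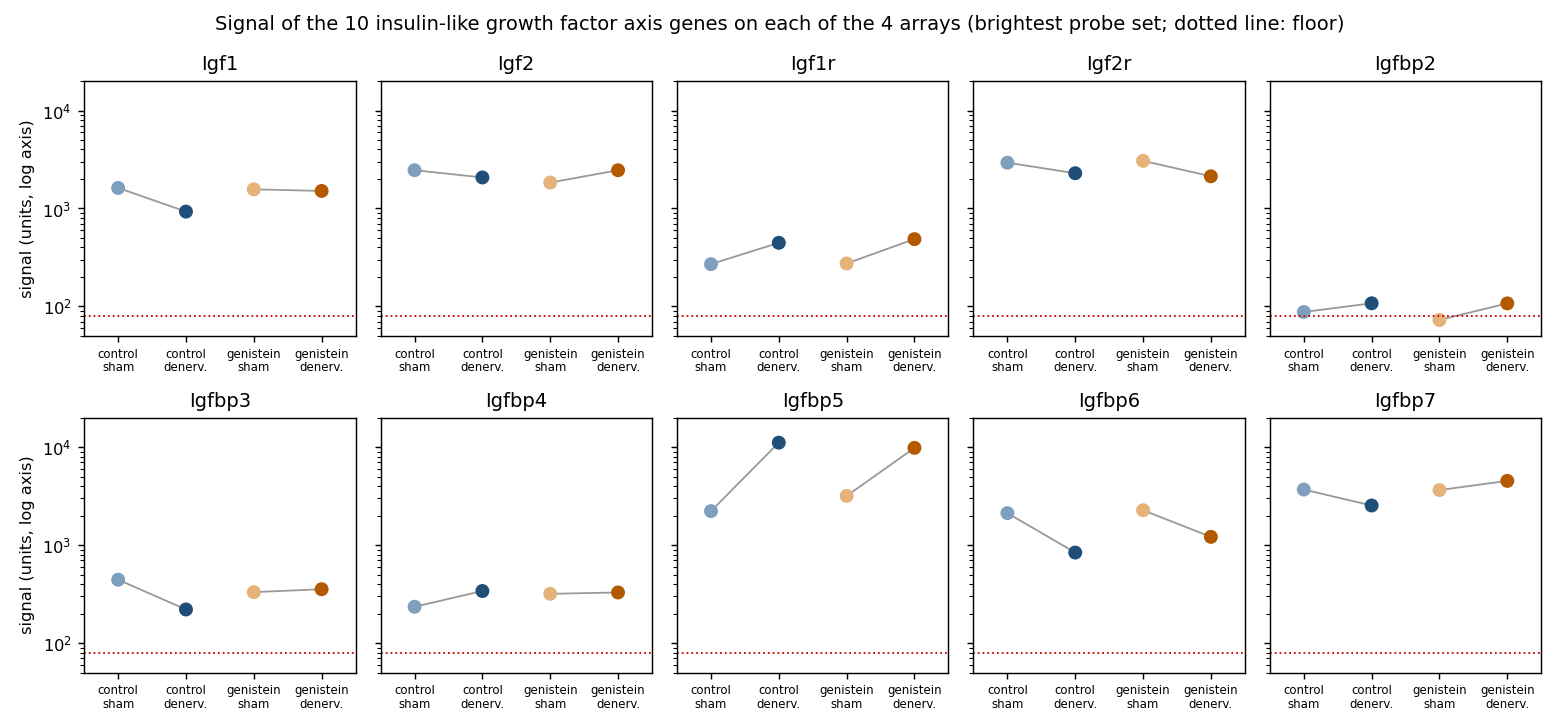
Signal in units (log axis) of the probe set that stands for each of the 10 genes, 1 point for each array, with a line joining the sham and denervated pool of a diet and a dotted line at the floor of 78.9 units. Igfbp5 was higher and Igfbp6 lower in both denervated pools, while Igf1, Igfbp3 and Igfbp7 read lower in the control denervated pool than in the other 3.

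The first comparison asks what nerve loss did to these genes on each diet. The most prominent difference was in the binding proteins. Igfbp5 was higher in denervated than in sham muscle, by 5.0-fold with the control diet and by 3.10-fold with genistein. Igfbp6 was 2.53-fold and 1.87-fold lower. Igf1r was 1.65-fold (control diet) and 1.77-fold (genistein) higher. Igf1 was 1.75-fold lower on the control diet and close to its sham level on genistein.

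On the control diet 1 of 10 genes (Igfbp5) was at least 2-fold higher, beside 5.04% of all 10755 measured genes. At least 2-fold lower were 2 of 10 (Igfbp3 and Igfbp6), beside 7.63%. On genistein 1 of 10 (Igfbp5) was at least 2-fold higher, beside 4.96% of 10810 genes, and 0 were 2-fold lower, beside 6.57%. On both diets at once, 1 of 10 (Igfbp5) was at least 2-fold higher, beside 3.59% of 10414 genes, and 0 were lower, beside 4.93%. The 10 genes had a median log2 ratio of -0.30 (control diet) and 0.20 (genistein), and all measured genes one of -0.00 and 0.02. The first median turned to 0.09 when arrays were scaled to the hybridisation controls, which moved the medians of all genes to 0.37 and 0.48.

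Of the ligands, Igf1 read 1621 units in control sham, 929 in control denervated, 1569 in genistein sham and 1509.9 in genistein denervated muscle. The control denervated pool was thus the low one of the 4. Its log2 denervation ratio was -0.80 on the control diet and -0.06 on genistein, where it became 0.42 under hybridisation control scaling and 0.09 as the mean of its probe sets. The other 2 probe sets of Igf1 gave -0.61 and -0.24 on the control diet, and -0.08 and 0.41 on genistein. All 3 probe sets were thus lower on the control diet, the last of them by less than the scatter SD of 0.35.

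Igf2 read 2458 units in control sham, 2074 in control denervated, 1838 in genistein sham and 2456 in genistein denervated muscle. The genistein sham pool was the low one, so the sham pools differed from each other about as much as the genistein pair did. Its log2 ratio was -0.25 on the control diet, which became 0.14 under hybridisation control scaling, and 0.42 on genistein. The other 3 Igf2 probe sets were below the floor on every array, between 4.9 and 61.2 units, so the Igf2 values rest on 1 probe set.

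Of the receptors, Igf1r read 270.2 units in control sham, 446 in control denervated, 274 in genistein sham and 486.5 in genistein denervated muscle. Both denervated pools lay above both sham pools. Each pool is 1 value. How often both denervated pools lie on 1 side of both sham pools over all genes was not counted. The log2 ratio of Igf1r was 0.72 on the control diet and 0.83 on genistein, and the second probe set gave 0.79 and 0.74. The 2 probe sets and the 2 diets thus gave 4 values between 0.72 and 0.83. Under hybridisation control scaling Igf1r passed 2-fold, with 1.11 and 1.30.

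Igf2r read 2933 units in control sham, 2289 in control denervated, 3064 in genistein sham and 2130.0 in genistein denervated muscle. Its log2 ratios were -0.36 on the control diet, which became 0.03 under hybridisation control scaling, and -0.52 on genistein. The second probe set gave 0.02 and -0.47, so on the control diet the 2 probe sets did not share a direction.

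Of the binding proteins, Igfbp5 is one that muscle cells make in quantity during differentiation, and it can hold IGF in the matrix. It read 2226 units in control sham, 11134 in control denervated, 3181 in genistein sham and 9847.5 in genistein denervated muscle. Both denervated values lay above both sham values, and the genistein pair lay inside the control pair at both ends. On the control diet its log2 ratio of 2.32 was rank 75 from the top of 10755 genes, and on genistein 1.63 was rank 176 of 10810. A second probe set read 1015, 7666, 1587 and 7016 units in the same order of groups, which made it 7.55-fold and 4.42-fold higher.

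The remaining Igfbp5 probe sets were dim. One of them had no sham signal above the floor and read 349 units (control) and 316 units (genistein) after denervation, which made it at least 4.42-fold and 4.01-fold higher. Another, also without a sham signal above the floor, read 189 and 121 units, at least 2.39-fold and 1.53-fold higher. The fifth read 14.2 to 43.5 units and was below the floor throughout. All 4 Igfbp5 probe sets with a signal above the floor were therefore higher after denervation on both diets. The mean over the 5 probe sets gave log2 ratios of 1.73 (control diet) and 1.28 (genistein). Of the 3 satellite cell markers on the array, Ncam1, which fibres also make after nerve loss, was higher on both diets (2.52 and 2.91). Cdh15 (-0.22 and -0.62) and Vcam1 (-0.96 and -0.50) were lower.

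Igfbp6, a binding protein that prefers Igf2 and is made by fibroblasts, went the other way. It read 2124 units in control sham, 840.4 in control denervated, 2274 in genistein sham and 1215 in genistein denervated muscle, so both denervated pools lay below both sham pools. The log2 ratio was -1.34 (rank 396 from the bottom) on the control diet and -0.90 (rank 864) on genistein. Its second probe set read 1676, 475 and 1686 units and, in genistein denervated muscle, 1135, with log2 ratios of -1.82 and -0.57. Under hybridisation control scaling the control diet ratio was -0.95, short of 2-fold. The 10 fibroblast and matrix markers were lower too, all 10 on the control diet (median -1.35, 9 of 10 under hybridisation control scaling), and 8 of 10 on genistein (median -0.61, but -0.14 with 7 of 10 lower under that scaling). Fibroblast markers were not alone in this on the control diet. All 7 endothelial (median -1.05) and 6 smooth muscle and pericyte markers (-0.90) were lower. So were all 8 slow fibre (-0.93), 6 general fibre (-0.51) and 7 of 8 macrophage and leukocyte markers (-0.58). On genistein these medians were -0.41, -0.50, -0.99, -0.56 and -0.02. Schwann cell medians were 0.02 and 0.57, and 3 of 4 adipocyte markers were higher on genistein. The part of these markers in the Igfbp6 result was not tested.

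Igfbp5 and Igfbp6 had the denervation ratios of greatest size and opposite direction among the 10 genes, so the 250 bases before their start sites are shown. The sequences are from RefSeq, build GRCr8, given 5′ to 3′ on the gene's strand. Capitals mark CANNTG, the E-box that the myogenic factors Myod1 and Myog bind in many muscle genes. This motif reads the same on both strands. The Igfbp5 window is chr9:81914188-81914437 on the minus strand and the Igfbp6 window is chr7:135154669-135154918 on the plus strand.
Igfbp5: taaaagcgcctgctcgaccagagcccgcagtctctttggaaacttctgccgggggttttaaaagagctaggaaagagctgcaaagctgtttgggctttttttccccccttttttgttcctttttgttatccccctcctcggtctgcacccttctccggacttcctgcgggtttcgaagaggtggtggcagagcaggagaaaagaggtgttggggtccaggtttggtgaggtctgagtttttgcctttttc
Igfbp6: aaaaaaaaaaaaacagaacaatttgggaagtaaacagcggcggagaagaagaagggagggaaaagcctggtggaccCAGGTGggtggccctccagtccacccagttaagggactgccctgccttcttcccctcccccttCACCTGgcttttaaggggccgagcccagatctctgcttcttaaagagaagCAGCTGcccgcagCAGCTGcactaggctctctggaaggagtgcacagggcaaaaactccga

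The Igfbp5 window held 0 matches and the Igfbp6 window 4, which begin 174, 111, 61 and 48 bases before the start site. The last 2 are the form CAGCTG, which is itself a case of CANNTG. Of all 33469 windows of this length, 65.5% held CANNTG, 12.0% held CAGCTG and 3.20% held 4 or more CANNTG. The table had 11 windows for the 10 genes (2 of them for Igf2), and 8 of these 11 held CANNTG. A match is a stretch of letters and no evidence of binding.

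Igfbp3, the main carrier of IGF in blood, read 444 units in control sham, 221 in control denervated, 331.5 in genistein sham and 355 in genistein denervated muscle. The control denervated pool was the low one. The log2 ratio was -1.01 on the control diet and 0.10 on genistein, which became -0.10 as the mean of its probe sets. Its second probe set read 251, 200.5, 312 and 252 units in the same order, with -0.32 and -0.31, so the diets differed on 1 probe set and not on the other. The count of 2-fold lower genes on the control diet rests on Igfbp3 lying just past 2-fold. It was -0.93 with arrays scaled to their median, -0.62 with hybridisation control scaling, -0.91 with no floor and -0.67 as the mean of its probe sets.

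Igfbp7 read 3697 units in control sham, 2540.3 in control denervated, 3654 in genistein sham and 4531 in genistein denervated muscle. The sham pools were alike, the control denervated pool was the lowest and the genistein denervated pool the highest of the 4. Its log2 ratio was -0.54 on the control diet and 0.31 on genistein.

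Igfbp4, a binding protein that mostly inhibits IGF action, read 235 units in control sham, 340.3 in control denervated, 318.5 in genistein sham and 329 in genistein denervated muscle, so the control sham pool was the low one. Its log2 ratio was 0.53 and 0.05, the second of which was -0.06 under quantile normalization. Igfbp2, which is abundant in fetal tissue, was close to the floor, at 87.7, 107.6, 72.7 and 107.4 units in the same order of groups. The denervated pool was 1.23-fold (control diet) and at least 1.36-fold (genistein) above the sham pool. Igfbp4, Igfbp2 and Igfbp7 each have 1 probe set.

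**Figure D2:**
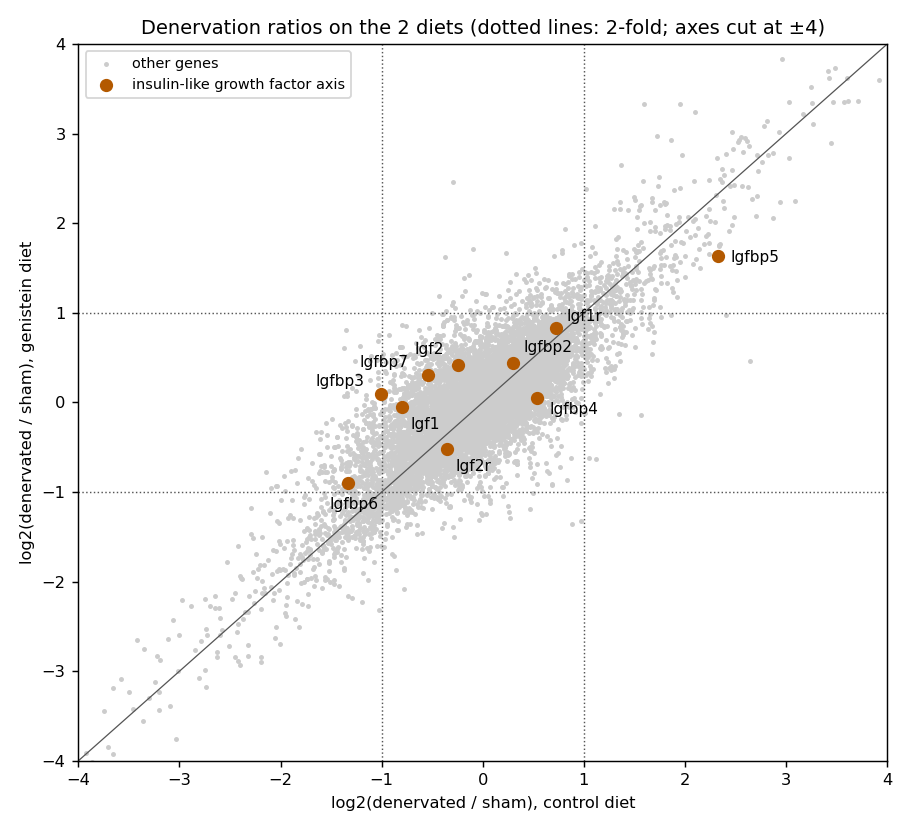
Log2 ratio of denervated to sham signal on the control diet (horizontal) and on genistein (vertical) for the 10 genes (orange) and the other genes measured in both comparisons (grey), with dotted lines at 2-fold and a line of equality. Igfbp5 lies past 2-fold in both directions of the plot (2.32 and 1.63), and Igfbp3 (-1.01 and 0.10) lies farthest above the line of equality among the 10.

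The next comparison is the difference between those denervation ratios, genistein minus control diet, which uses all 4 arrays. For 7 of 10 genes it was above 0, with a median of 0.29 beside -0.00 over all 11151 measured genes. The median was 0.17 with arrays scaled to their median. Only Igfbp3 passed 2-fold upward (1.11), 1 of 10 beside 1.88% of all genes, and 0 of 10 passed it downward, beside 0.708%. Its second probe set gave 0.01, and the 2-fold count became 0 with arrays scaled to their median, where Igfbp3 lay just short of 2-fold, and with the mean of its probe sets (0.56).

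After Igfbp3 came Igfbp7 (0.85), Igf1 (0.75), Igf2 (0.66) and Igfbp6 (0.43), all with a less negative or a positive denervation ratio on genistein. The 3 probe sets of Igf1 gave 0.53 to 0.75, and those of Igfbp6 gave 0.43 and 1.25. Igfbp5 (-0.69, second probe set -0.77) and Igfbp4 (-0.49) had smaller denervation ratios on genistein. Igf1r (0.10), Igfbp2 (0.15, with genistein sham muscle at the floor) and Igf2r (-0.17) differed by less than the SD between probe sets of a gene for this quantity, 0.34. The second Igf2r probe set gave -0.49, beyond that SD, and the second Igf1r probe set -0.05. The sign for Igf1r and Igfbp2 also turned under a scaling tried (-0.01 for each).

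**Figure D3:**
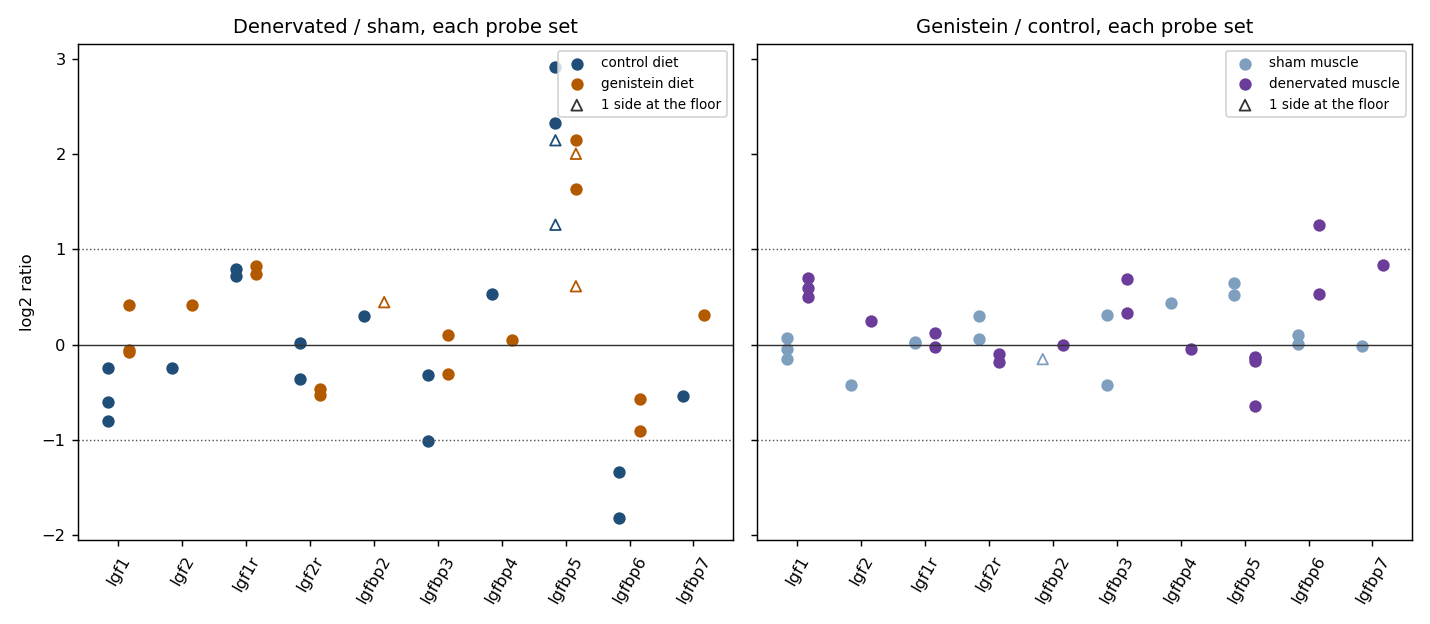
Log2 ratio of each probe set of the 10 genes that was above the floor on at least 1 array compared, for denervated over sham muscle (left) and genistein over control diet (right), with dotted lines at 2-fold and open triangles where 1 side was at the floor. The 4 Igfbp5 probe sets were all above 0 for denervation on both diets, and the 3 Igf1 probe sets all above 0 for genistein in denervated muscle.

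The diet was then compared within each operation. These ratios use the same arrays as those above, so they restate the 4 values of a gene from another side and are no separate evidence. In sham muscle 0 of 10 passed 2-fold upward on genistein, beside 0.324% of 10819 genes, and 0 downward, beside 0.287%. The median log2 ratio was 0.00, as over all genes. Igfbp5 (0.51) and Igfbp4 (0.44) were the highest, and Igfbp3 (-0.42) and Igf2 (-0.42) the lowest. The second probe set gave 0.64 for Igfbp5 and 0.32 for Igfbp3, so Igfbp3 had no settled direction. Igfbp2, below the floor on genistein, was at least 1.11-fold lower. The other 5 genes lay between -0.05 and 0.10 on their brightest probe sets. The second Igf2r probe set gave 0.30, past the scatter SD of 0.26, and the other Igf1 probe sets gave 0.07 and -0.15.

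In denervated muscle both ligands and 3 of the 6 binding proteins read higher on genistein, and the other 3 binding proteins slightly lower. Igfbp7 was 1.78-fold higher, Igf1 1.63-fold, Igfbp3 1.61-fold and Igfbp6 1.45-fold, against a scatter SD of 0.25 on the log2 scale. At least 2-fold higher were 0 of 10, beside 1.02% of 10479 genes, and at least 2-fold lower 0, beside 0.124%. The median log2 ratio was 0.18, beside 0.00 over all genes. It was 0.05 with arrays scaled to their median, a scaling that moved the median of all genes to -0.13.

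The other probe sets gave 0.50 and 0.60 for Igf1, 0.33 for Igfbp3 and 1.26 for Igfbp6. The last is 2.39-fold, the only probe set of the 10 genes past 2-fold here. Igf2 was at 0.24 and Igf1r at 0.13, the latter -0.01 with arrays scaled to their median. Igf2r (-0.10), Igfbp5 (-0.18), Igfbp4 (-0.05) and Igfbp2 (-0.00) were slightly lower, and under hybridisation control scaling Igfbp4 and Igfbp2 were above 0 (0.02 and 0.07). The signs of Igf1, Igfbp3, Igfbp6 and Igfbp7 held under all 7 alternatives, with ranges of 0.57 to 0.77, 0.51 to 0.76, 0.40 to 0.89 and 0.70 to 0.92.

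Most markers of cells outside the fibre were, like these 4 genes, higher on genistein in denervated muscle. In such whole-muscle pools, fewer cells of a type and less RNA per cell cannot be told apart. All 10 fibroblast and matrix markers were higher on genistein in denervated muscle (9 of 10 with median or quantile scaling), with a median log2 ratio of 0.73. Their summed signal was 61652 units in control sham, 26304 in control denervated, 62378 in genistein sham and 44822 in genistein denervated muscle. Such a sum follows the brightest probe sets of its list and is no measure of the amount of a cell type. All 7 endothelial markers were higher too (6 of 7 with median or quantile scaling, median 0.57), with sums of 4286, 2102.5, 4263 and 3109 units. All 8 measured macrophage and leukocyte markers were higher (median 1.0), with sums of 7099, 4081.5, 7545 and 7260.0 units.

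The 6 smooth muscle and pericyte markers were higher as well (median 0.39; sums 3098, 1716, 3163 and 2245 units), as were the 3 measured Schwann cell markers (median 0.59; sums of the list 3278, 3314, 3404 and 4408 units). The Schwann cell gene Sox10 was below the floor on every array. The 4 measured adipocyte markers were higher too (median 0.99). Of these, Adipoq, Plin1 and Cfd lay at 0.05, -0.18 and -0.17 for denervation on the control diet and at 0.95, 1.39 and 1.24 on genistein. Fabp4, which endothelial cells also make, was lower on both (-1.14 and -0.57) and held most of the summed signal of the list (7258, 3878, 6756 and 6236.5 units). The adipocyte gene Lep was below the floor throughout. Of the satellite cell markers, Vcam1 (0.50) and Ncam1 (0.30) were higher on genistein in denervated muscle, and Cdh15 (-0.59) was lower. All 6 general fibre markers were lower on genistein in denervated muscle (median -0.28, 4 of 6 with quantile normalization), with sums of 186784, 137835, 159501 and 112458 units. All 6 were lower on genistein in sham muscle too (median -0.15). The other sham medians were 0.06 (fibroblast), -0.08 (endothelial), 0.20 (macrophage), 0.00 (smooth muscle), -0.02 (Schwann cell), -0.16 (adipocyte) and -0.09 (satellite cell). The ratio of 3′ to 5′ actin signal, which is raised when RNA is broken down, was 2.08 (control) and 2.32 (genistein) in the sham pools, and 3.79 and 2.76 in the denervated pools. The same ratio for Gapdh went the other way, from 1.24 and 1.20 in the sham pools to 1.14 and 1.13 in the denervated pools. The part of these markers and ratios in the results for the IGF axis was not tested.

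**Figure D4:**
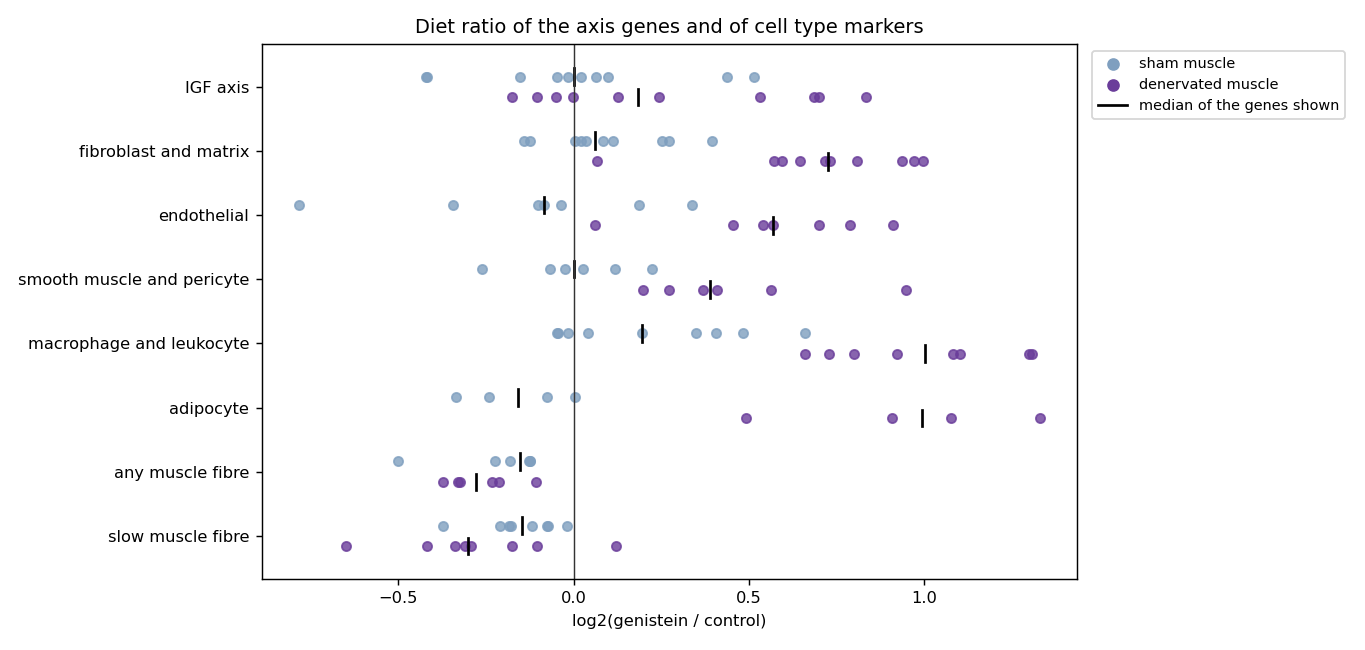
Log2 ratio of genistein to control diet in sham (pale blue) and denervated muscle (purple) for the 10 IGF axis genes and for markers of 7 cell types, 1 point for each measured gene, with a black bar at the median. In denervated muscle the matrix (0.73), endothelial (0.57), macrophage (1.0) and adipocyte (0.99) medians lie above that of the IGF axis (0.18), and the fibre medians below 0.

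For the 3 genes whose log2 signals spanned at least 1 over the arrays, the genes with the most similar pattern were looked for among 9362 genes with no array below the floor. Likeness was the Euclidean distance between log2 signals centred on each gene's mean, over only 4 arrays. Only the brightest probe set of each gene was used. Nearest to Igfbp6 were the collagen genes Col6a1 (distance 0.04) and Col4a1 (0.07) and the kinesin gene Kifc3 (0.08). Col6a1 read 1516, 607.5, 1601 and 842 units in control sham, control denervated, genistein sham and genistein denervated muscle. Its log2 denervation ratios were -1.32 (control diet) and -0.93 (genistein), against -1.82 and -0.57 for the second Igfbp6 probe set. Nearest to Igfbp3 were Glipr1 (0.12), the endothelial gene Eng (0.12) and Smim13 (0.14), and Eng read 359, 169.6, 282 and 276 units. The denervation ratios of Eng were -1.08 and -0.04, against -0.32 and -0.31 for the second Igfbp3 probe set, so this likeness holds for 1 probe set. Nearest to Igfbp5 were Nqo1 (0.18), a quinone reductase and antioxidant response gene, Castor2 (0.18) and Ephx1, a xenobiotic epoxide hydrolase (0.20). Nqo1 read 1114, 5135, 1422 and 5142 units. Its denervation ratios were 2.20 and 1.85, against 2.92 and 2.14 for the second Igfbp5 probe set.

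Other genes of the pathway were taken from 5 lists with 56 members, of which 54 were on the array and 10 were below the floor throughout. On the control diet 3 of 44 measured members were at least 2-fold higher in denervated muscle, beside the 5.04% of all genes, and 8 were lower, beside 7.63%. On genistein 2 of 42 were higher, beside 4.96%, and 7 lower, beside 6.57%. The medians were -0.02 and -0.21 on the 2 diets. They turned to 0.31 and 0.25 under hybridisation control scaling, each below the shift of all genes given above.

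Among the growth hormone input genes, the kinase Jak2 was 3.40-fold higher in denervated muscle on the control diet (215 to 730.3 units) and 2.66-fold on genistein (234 to 623 units). It was the only one of 8 measured members past 2-fold for denervation. The growth hormone receptor Ghr was lower by log2 ratios of -0.75 and -0.60, but its second probe set gave -0.04 and 0.23. Igfals, the circulating partner of the IGF and Igfbp3 complex, and Gh1 were below the floor. Cish, a feedback inhibitor of cytokine and growth hormone signalling, differed by diet. It read 111 and 128 units in control sham and denervated muscle and 306 and 324 units on genistein, 2.75-fold higher in sham and 2.53-fold in denervated muscle. Its second probe set was below the floor on every array, at 9.2 and 17.2 units on the control diet and 50.7 and 70.0 units on genistein. The 2-fold difference of Cish was lost with the mean of its probe sets (0.73 and 0.67) and with the floor at the 60th percentile (0.49 and 0.58).

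Of the proteases and inhibitors that free or hold IGF, Timp1 was 3.04-fold lower on the control diet (994 to 326 units) and 1.49-fold lower on genistein (830 to 555 units), a difference between the log2 ratios of 1.03 (0.91 with arrays scaled to their median). Adamts9 was 2.01-fold and 1.52-fold higher, but its second probe set read 136 units in control sham and was below the floor in control denervated muscle, and the mean of both gave 0.11 on the control diet. Adamts1 was 1.49-fold and 2.15-fold lower. Htra1, a protease that cuts IGF binding proteins, was 1.13-fold and 1.11-fold higher for denervation. It was 1.46-fold and 1.45-fold higher on genistein in sham and denervated muscle.

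Of the insulin receptor, its substrates and adaptors, Pik3r1, a regulatory subunit of PI3K, was 5.21-fold higher on the control diet (271 to 1413 units) and 4.49-fold on genistein (262 to 1178 units). Grb14, an inhibitor of the insulin receptor, was 3.27-fold and 2.80-fold lower, and the substrate Irs2 was 2.17-fold and 1.62-fold lower. The substrate Irs1 was below the floor in both denervated pools, which made it at least 1.97-fold and 2.08-fold lower. Insr itself was at -0.24 and -0.48, and its other probe set gave 0.52 and -0.44.

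Of the secreted proteins related to the IGF binding proteins, 4 of 8 measured members were at least 2-fold lower on the control diet, beside 7.63% of all genes, and 2 of 8 on genistein, beside 6.57%. Esm1, an endothelial proteoglycan, read 2041, 222, 2437 and 259.5 units and was 9.18-fold and 9.39-fold lower. Ccn3 was 3.99-fold and 2.13-fold lower, and 2.27-fold higher on genistein in denervated muscle. Ccn2, connective tissue growth factor, was 3.01-fold and 1.72-fold lower, and Ccn4 was at least 2.24-fold and 1.73-fold lower. Igfbp1, the binding protein of liver, and Igfbpl1 were below the floor on every array.

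Of the Igf2 mRNA binding and imprinted genes, Mest was 3.16-fold and 2.57-fold lower (293 to 92.8 and 281 to 109.6 units; log2 -0.43 and -0.37 with the floor at the 60th percentile), while H19, the imprinted neighbour of Igf2, was at 0.02 and 0.21. Igf2bp2 was higher by 0.83 and 0.99. Ins1 read 86.9, 170.9, 218 and 87.1 units, all within 3-fold of the floor, and so was 2.51-fold higher on genistein in sham muscle and 1.96-fold lower in denervated muscle. Over all 5 lists, 2 of 41 measured members (Cish and Ins1) were at least 2-fold higher on genistein in sham muscle, beside 0.324% of all genes, and 0 lower, beside 0.287%. In denervated muscle 2 of 40 (Cish and Ccn3) were higher, beside 1.02%, and 0 lower, beside 0.124%. With the floor at the 60th percentile none of these 3 genes passed 2-fold, with Ccn3 at 0.96 and Ins1 at 0.00.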

How the data were processed

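RNA pooled from 8 rats per group was labelled with biotin (3′ IVT) and hybridised to 1 rat array for each of 4 groups. The authors deposited 1 linear signal intensity for each of 31099 probe sets, made with GCOS 1.1 per the submitters' processing notes, and scaled alike on every array. The scaling target, detection calls and genome build are not given in the sources used here. Control probe sets (57) were set aside. The platform annotation gave 1 symbol to 20826 probe sets, several to 436 and none to 9780, and only the first were named. All 23 probe sets of the 10 genes matched RefSeq gene identifiers (GRCr8). Groups came from sample titles.

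Signals were floored at the 40th percentile, and log2 ratios were computed with numpy 2.4.6 and pandas 2.3.3. Genes below the floor on every array compared were left out of that comparison. Where only 1 of the arrays was below it, the ratio is given as a bound. No test was run, as each group is 1 array, and the number of arrays limits the precision. Genes were counted past 2-fold, beside the share of all genes past it. The code was tested on simulated data.

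Named were all 10 genes, the members of 5 further pathway lists past 2-fold and above the floor on both arrays, the member of each list with the largest ratio, and the 3 genes nearest in pattern. Other list members named were chosen after their values were seen. The members and lists were chosen with earlier results of these data known. Alternatives were 3 scalings, floors at the 20th and 60th percentile, no floor with 32 added, and the mean of a gene's probe sets.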

Additional observations from a re-analysis of the deposited data

Results flagged for a closer look

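For several of the genes the denervation ratio had opposite signs on the 2 diets, or the diet ratio opposite signs in sham and denervated muscle, and the 2 ratios differed by more than the SD of 0.34 between probe sets of a gene. With 1 array per group these differences were not tested. The denervation ratio was -0.25 on the control diet and 0.42 on genistein for Igf2, -1.01 and 0.10 for Igfbp3, and -0.54 and 0.31 for Igfbp7. The diet ratio was -0.05 in sham and 0.70 in denervated muscle for Igf1, and -0.42 and 0.24 for Igf2. It was -0.42 and 0.69 for Igfbp3, though the second Igfbp3 probe set was above 0 in both. It was -0.02 and 0.83 for Igfbp7, 0.44 and -0.05 for Igfbp4, and 0.51 and -0.18 for Igfbp5. Not all of these signs held. Under hybridisation control scaling, Igf2 was at 0.14 for denervation on the control diet and Igfbp4 at 0.02 for diet in denervated muscle. Igfbp3 was at -0.10 for denervation on genistein as the mean of its probe sets. Its second probe set gave -0.32 and -0.31 for denervation on the 2 diets. Another Igf1 probe set gave 0.07 for diet in sham muscle. Both kinds of ratio come from the same 4 values of a gene.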

How the results depend on the processing

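Of 350 recomputed log2 ratios of the 10 genes, 323 moved by less than the SD between probe sets of a gene and 27 by more, and 0 of those past 2-fold changed sign. Some of the 350 could not move. A new floor leaves signals well above it as they are, and 3 genes have 1 probe set, which is its own mean. Median and hybridisation control scaling shift all ratios above the floor in a comparison by 1 constant of less than 2-fold. Under these scalings a ratio past 2-fold could not change sign, so that count says little. Smaller ratios did change sign, among them Igf2 (0.14) and Igf2r (0.03) for denervation on the control diet under hybridisation control scaling. Hybridisation control scaling gave 2 of 10 genes past 2-fold for denervation on genistein, both higher, beside 16.1% of all genes higher and 2.45% lower. On the control diet it gave Igf1r and Igfbp5 in place of Igfbp3, Igfbp5 and Igfbp6, beside 12.6% higher and 3.52% lower. For the difference between the denervation ratios, the count of 10 genes past 2-fold became 0 with median scaling, beside 1.23% higher and 1.1% lower. It was 0 too with the mean of probe sets, beside 1.31% of all genes higher and 0.519% lower. Among the other pathway genes, the 2 past 2-fold for diet in sham muscle became 0 with the floor at the 60th percentile. Of all genes, 0.0618% were higher and 0.0371% lower there. The 2 became 1 with the mean of probe sets, beside 0.277% of all genes higher and 0.221% lower. In denervated muscle the 2 became 7 with the floor at the 20th percentile, where 3.1% of all genes were higher and 1.38% lower. They became 0 at the 60th (0.383% and 0.0247%) and 1 with the mean of probe sets (0.715% and 0.0572%). For the difference, 1 of 44 measured members was higher (Timp1), beside 1.88% of all genes, and 1 lower (Ins1), beside 0.708%. The 2 became 1 with median scaling (1.23% of all genes higher, 1.1% lower) and quantile normalization (1.45% and 0.908%). They also became 1 with the floor at the 60th percentile (0.492% and 0.141%). They became 8 with the floor at the 20th (5.73% and 3.83%) and 5 with no floor (2.46% and 1.56%). Of all genes past 2-fold for denervation, 39.8% (control diet) and 43.0% (genistein) were higher, against 78.1% and 86.8% under hybridisation control scaling. For diet in denervated muscle 89.2% were higher, and 69.3% with median scaling, 79.1% with quantile normalization or 69.1% with the floor at the 20th percentile. For the difference 72.7% were higher, and 52.9% with median scaling and 61.5% with quantile normalization. No paired analysis was possible because each group is 1 pool on 1 array. Igfbp2 and Ins1 signals lay close to the floor, where ratios are least certain.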
